A study of Mus musculus with 12 samples.

Results

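Ribosomal RNA and a few other abundant noncoding RNAs, together with Lars2, were followed through poly(A)-selected RNA-seq libraries of mouse medial prefrontal cortex. The 7 genes were CT010467.1 at the nuclear ribosomal RNA repeat, mt-Rnr1 and mt-Rnr2 for the mitochondrial ribosomal RNAs, Rn7sk for 7SK RNA, Rmrp for the RNA of RNase MRP, Rpph1 for the RNA of RNase P, and Lars2 for the mitochondrial leucyl-tRNA synthetase. They were picked by symbol among 55401 gene IDs with their share of counts in the 12 libraries already known, and 5 of them had first been named for small p-values between the morphine groups. Their shares and fold changes are therefore given as a description. Nothing is read from the p-values and calls given for them. The 7 symbols matched 8 rows, because Rmrp had a second, noncoding row that held at most 12 counts in a library and failed the filter on low counts. The 7 main rows passed that filter.

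All mice were male, had gone through conditioned place preference, a test of the preference for a place that was paired with a drug, and were sampled after 2 weeks of extinction. The first group received an AAV (adeno-associated virus) for knockdown of the serotonin receptor 5-HT6R and morphine, the second a scramble AAV and morphine, and the third the scramble AAV and saline, with 4 libraries each. There was no group with knockdown and saline, and the strain, the age, the promoter that drives the virus and the cells it reaches are not stated in the labels. Library totals ran between 41483220 and 65739423 counts.

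Htr6, the gene of the targeted receptor, had 3.77 to 5.50 CPM (counts in 1000000 counts of the library) in the knockdown libraries, against 4.82 to 5.67 in the scramble libraries with morphine and 4.41 to 7.98 in those with saline, and the ranges overlapped. Between the morphine groups its log2 fold change was -0.13 (SE 0.18, adjusted p = 0.823 in edgeR), so the gene did not check the labels. All 7 cortical excitatory neuron markers and all interneuron, astrocyte, oligodendrocyte and microglia markers averaged above 1 CPM in each group. The summed level of 4 oligodendrocyte markers was 845 to 1519 CPM with knockdown, against 1395 to 1970 with scramble and morphine and 1347 to 1778 with scramble and saline. The summed level of 5 interneuron markers was 470 to 509 CPM with knockdown, against 526 to 558 with scramble and morphine and 511 to 535 with scramble and saline, so the knockdown libraries overlapped neither scramble group. Of 3 choroid plexus markers it was 1.80 to 3.75 CPM with knockdown, against 3.93 to 5.57 with scramble and morphine and 1.88 to 3.90 with scramble and saline, and Ttr, the defining one, was at 0 to 0.611 CPM in the 12 libraries. The other 7 marker lists overlapped between the morphine groups, oligodendrocytes included. The part of these differences in the results that follow was not tested.

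Ribosomes are built on ribosomal RNA, which RNA polymerase I transcribes from tandem repeats in the nucleolus and which makes up most of the RNA of a cell. Mitochondria make their own ribosomal RNAs from the mitochondrial genome, as part of long transcripts that also hold tRNAs and mRNAs. RNA polymerase III makes 7SK RNA, which holds the elongation factor P-TEFb inactive, RNase MRP RNA, which takes part in cutting precursor ribosomal RNA, and RNase P RNA, which takes part in trimming the 5′ end of tRNAs. Nuclear ribosomal RNA and the polymerase III products carry no long poly(A) tail, whereas mitochondrial ribosomal RNAs carry short ones. The libraries were selected with oligo(dT) beads, so a share of such RNA counts is a level in the library and not in the tissue. In bulk tissue, fewer cells of a type and less RNA per cell also cannot be told apart.

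The letters of the annotated transcripts show what each row can collect. CT010467.1 (ENSMUSG00000106106, type rRNA) lies at chr17:39846353-39848827 on the minus strand of mm10. Its longest transcript, of 1849 bases in GENCODE M21, is annotated against the direction of the ribosomal RNA. The longest run of letters that the opposite strand of this transcript shares with mt-Rnr1, the other small-subunit ribosomal RNA here, is 15 bases, AAGTCGTAACAAGGT, and lies near the 3′ end of both RNAs. Searched on both strands of the transcripts of 55450 genes, it was found in the annotated direction in mt-Rnr1 and Gm42418, which is 0.00361% of genes, and in the opposite direction in CT010467.1 alone. The 60 bases around it are shown for CT010467.1 on its annotated strand (chr17:39848142-39848201, minus), for the opposite strand of the same window, and for the 3′ end of mt-Rnr1 (chrM:965-1024, plus), with these letters or their reverse complement in capitals.
CT010467.1 annotated strand: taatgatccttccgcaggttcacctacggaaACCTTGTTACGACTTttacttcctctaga
CT010467.1 opposite strand: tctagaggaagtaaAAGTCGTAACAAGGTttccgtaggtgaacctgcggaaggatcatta
mt-Rnr1 3′ end: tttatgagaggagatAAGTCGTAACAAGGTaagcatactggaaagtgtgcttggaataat
The run began at base 911 of 955 in mt-Rnr1, and its reverse complement at base 32 of 1849 in CT010467.1. Library preparation marked the strand with dUTP, but whether counting used it is not stated in the labels or headers. Reads of ribosomal RNA and of its annotated antisense transcript therefore cannot be told apart in the CT010467.1 row. Gm42418, AY036118 and Gm26917, which overlap the same repeat, were not analysed here, and the library totals, the share of CT010467.1 and its part of the ribosomal RNA counts are without them.

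Lars2 (ENSMUSG00000035202, protein-coding) lies at chr9:123366927-123462666 on the plus strand. AGTACGAGA, the letters with which the sarcin-ricin loop of large-subunit ribosomal RNA opens, was searched on both strands and found in the annotated direction in 0.364% of genes and in the opposite direction in 0.101%. Lars2 was the only one of the 7 genes that held it. The search stopped at these 9 letters, and how far Lars2 resembles large-subunit ribosomal RNA beyond them was not tested. In Lars2-201, of 3894 bases and 21 exons, the letters stood at bases 3399 to 3407, 491 bases after the end of the coding sequence in a 3′ untranslated region of 986 bases. The first 7 of them, AGTACGA, also stand in mt-Rnr2, the large-subunit ribosomal RNA of mitochondria, from base 1470 of 1582, and in the annotated direction in 2.89% of genes. The 30 bases around them are shown for the Lars2 3′ untranslated region (chr9:123462163-123462192, plus) and for mt-Rnr2 (chrM:2557-2586, plus), with the matched letters in capitals.
Lars2 3′ UTR: ctgctcAGTACGAGAggaaccgcagctagc
mt-Rnr2: tctcccAGTACGAaaggacaagagaaatag
The deposited values are counts per gene, so they do not show where along Lars2 the reads fell.

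**Figure D1:**
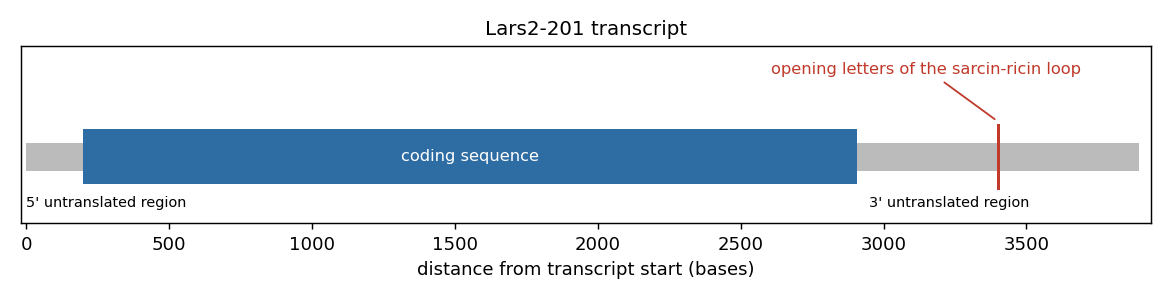
Map of the Lars2-201 transcript, with distance from its start in bases on the x axis, the coding sequence as the tall bar and the untranslated regions as thin bars. The opening letters of the sarcin-ricin loop, at bases 3399 to 3407, lie 491 bases after the end of the coding sequence.

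The 3 polymerase III products have short, GC-rich transcripts with 58.0% (Rn7sk), 64.2% (Rmrp) and 67.1% (Rpph1) G or C, and their longest run of A was 3, 3 and 2 bases. The mitochondrial ribosomal RNAs held 37.8% (mt-Rnr1) and 38.2% (mt-Rnr2) A, with longest runs of 5 and 7 A. Of 141767 annotated transcripts, 22.3% had a run of A at least as long as that of mt-Rnr2, and the median longest run was 5. The longest A run of CT010467.1 was 4 and that of Lars2 was 6. The stretch of mt-Rnr2 with its longest A run (chrM:1461-1520, plus) is shown with runs of at least 6 A in capitals. The first 120 of the 331 bases of Rn7sk (chr9:78175514-78175633, minus) are shown with each GATC in capitals, since GATC occurs in the 5′ hairpin of 7SK that the inhibitor HEXIM1 binds.
mt-Rnr2 A-rich stretch: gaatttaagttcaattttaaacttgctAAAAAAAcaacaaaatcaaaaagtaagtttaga
Rn7sk 5′ part: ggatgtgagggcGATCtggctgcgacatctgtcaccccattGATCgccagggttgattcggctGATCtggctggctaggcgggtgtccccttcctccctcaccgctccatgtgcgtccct
GATC began at bases 13, 42 and 64 of Rn7sk, and 9.15% of 4689 transcripts of 300 to 360 bases held as many or more.

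CT010467.1 was the largest contributor among the 7 genes and the one with the widest absolute spread. It took 9.38, 6.79, 4.57 and 5.12% of counts in knockdown replicates 1, 2, 3 and 5, against 2.56, 3.04, 2.84 and 2.38% in scramble morphine replicates 1, 3, 4 and 5, and 4.61, 4.48, 3.58 and 5.63% in scramble saline replicates 2, 3, 4 and 5. The means were 6.46 ± 2.16% with knockdown, 2.71 ± 0.292% with scramble and morphine and 4.57 ± 0.839% with scramble and saline (SD, n = 4 each). All 4 knockdown libraries stood above all 4 scramble libraries with morphine, and the knockdown and saline libraries overlapped. The counts behind these shares were 1176878 to 4669637 per library, which gives exact 95% binomial intervals of 0.0864 to 0.178% of the share to either side. Such intervals cover counting error only.

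CT010467.1 held 99.99% of the counts in the 354 rows of type rRNA that were analysed here. Protein-coding genes took 89.1 ± 2.21% of counts with knockdown, against 93.1 ± 0.234% with scramble and morphine and 91.1 ± 0.854% with scramble and saline (SD, n = 4 each). The 7 genes together took 7.50 ± 2.31% with knockdown, against 3.31 ± 0.303% with scramble and morphine and 5.35 ± 0.933% with scramble and saline. The highest single library was knockdown replicate 1, at 10.6%.

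Lars2, which encodes the enzyme that charges mitochondrial leucine tRNA, was high and low in much the same libraries as CT010467.1. It took 0.587, 0.434, 0.301 and 0.437% of counts in the knockdown libraries, in the replicate order used above. It took 0.147, 0.167, 0.200 and 0.168% in the scramble libraries with morphine, and 0.243, 0.271, 0.179 and 0.289% in those with saline. Every knockdown library was above every scramble library, whether with morphine or with saline, and the morphine and saline libraries with scramble overlapped through saline replicate 4. The means were 0.440 ± 0.117, 0.171 ± 0.0219 and 0.245 ± 0.0481% (SD, n = 4 each) with knockdown, with scramble and morphine, and with scramble and saline.

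Set beside its own enzyme family, Lars2 had far more counts. On the scale of CPM per kilobase of exon, the median of Lars2 over the 12 libraries was 232, although all its annotated exons, 11089 bases, were taken as its length. The 16 other mitochondrial aminoacyl-tRNA synthetases had medians over the libraries of 1.26 to 7.87, the middle of which was 3.17, and the highest of them was Aars2 for alanine. By these medians Lars2 was 29.4 times Aars2 and 73.1 times the middle of the 16. CT010467.1 stood at 26213 ± 8749 CPM per kilobase with knockdown, against 10973 ± 1186 with scramble and morphine and 18548 ± 3403 with scramble and saline (SD, n = 4 each).

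**Figure D2:**
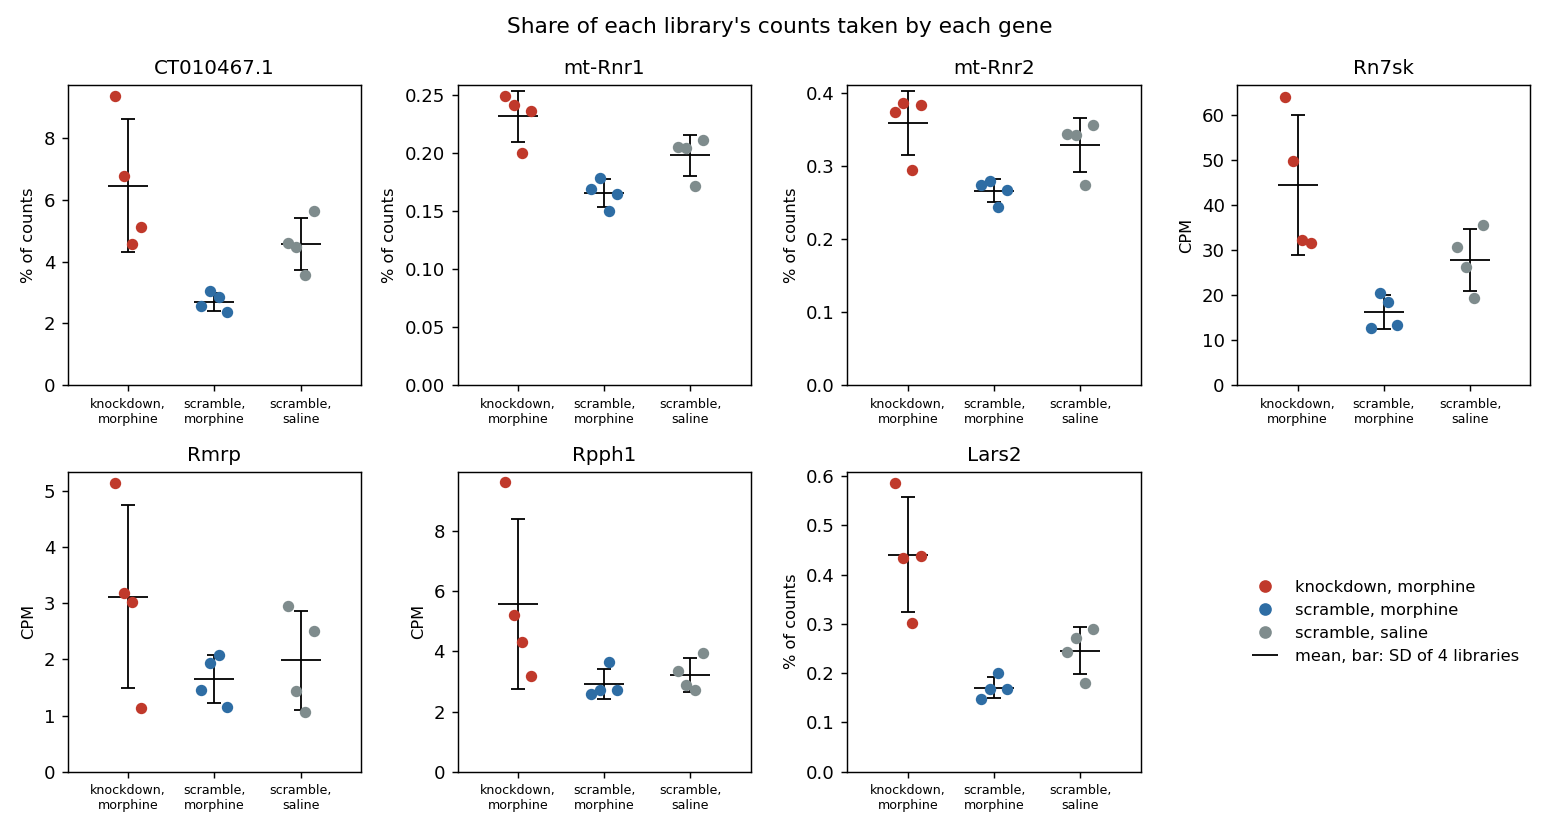
Share of each library's counts taken by each gene, in percent of counts or in CPM as the y axes say, with points for the 4 libraries of each group, a line for the mean and a bar for the SD. CT010467.1 averaged 6.46% with knockdown, 2.71% with scramble and morphine and 4.57% with scramble and saline, and 5 of the 7 genes, which were chosen on these libraries, had every knockdown library above every scramble library with morphine, beside 1.53% of all genes tested.

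The mitochondrial ribosomal RNAs differed in the same direction over a narrower range. mt-Rnr1, of the small mitochondrial subunit (ENSMUSG00000064337, chrM:70-1024, plus), took 0.249, 0.242, 0.200 and 0.237% of counts in the knockdown libraries, against 0.169, 0.179, 0.150 and 0.164% in the scramble libraries with morphine and 0.205, 0.204, 0.172 and 0.211% in those with saline. mt-Rnr2, of the large subunit (ENSMUSG00000064339, chrM:1094-2675, plus), took 0.374, 0.386, 0.294 and 0.384%, against 0.275, 0.280, 0.244 and 0.268% and 0.345, 0.342, 0.274 and 0.356% in the same order of libraries. The knockdown and scramble libraries with morphine did not overlap for either gene, and knockdown replicate 3 was the lowest knockdown library for both. The highest library exceeded the lowest 1.66 times for mt-Rnr1 and 1.58 times for mt-Rnr2, whereas it did so 3.94 times for CT010467.1.

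Rn7sk (ENSMUSG00000065037, type misc_RNA), the most abundant of the 3 polymerase III products, had 64.1, 49.7, 32.1 and 31.7 CPM in the knockdown libraries. It had 12.7, 20.4, 18.4 and 13.4 in the scramble libraries with morphine, and 30.6, 26.1, 19.2 and 35.5 in those with saline. The knockdown libraries were all above the scramble libraries with morphine, and overlapped those with saline. Its counts of 762 to 3192 per library give intervals of 3.48 to 7.17% of the share to either side, for counting error only.

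Rmrp and Rpph1, the catalytic RNAs that share most of their protein subunits, were the least abundant. Rpph1 (ENSMUSG00000092837, chr14:50807449-50807767, minus) had 9.62, 5.21, 4.32 and 3.18 CPM in the knockdown libraries, against 2.60, 2.73, 3.66 and 2.72 in the scramble libraries with morphine and 3.35, 2.88, 2.71 and 3.95 in those with saline. Rmrp (ENSMUSG00000088088, chr4:43492788-43493058, minus) had 5.14, 3.17, 3.03 and 1.14, against 1.46, 1.93, 2.07 and 1.16 and 2.95, 1.44, 1.07 and 2.50. Knockdown replicate 5 lay inside the scramble morphine range for Rpph1 and just below it for Rmrp, so these groups overlapped for both genes. Rmrp rested on 66 to 256 counts per library and Rpph1 on 152 to 479, which give intervals of up to 24.9 and 16.2% of the share to either side.

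The comparison of knockdown with scramble, both with morphine, is the one in which the genes were chosen. All 7 lay above 0 on the log2 scale of the edgeR fit, with a median of 1.0, while the median of all 21958 genes tested was 0.00. The log2 fold changes were 1.53 (SE 0.28) for Rn7sk, 1.43 (SE 0.20) for Lars2, 1.33 (SE 0.22) for CT010467.1, 1.0 (SE 0.29) for Rpph1, 0.99 (SE 0.41) for Rmrp, 0.55 (SE 0.09) for mt-Rnr1 and 0.50 (SE 0.10) for mt-Rnr2. As folds with 95% intervals, Rn7sk was 2.89 times its scramble level (1.85 to 4.51), CT010467.1 2.51 times (1.79 to 3.54) and mt-Rnr1 1.47 times (1.28 to 1.69). Shares did not overlap, with knockdown higher, for 5 of the 7 genes and for 1.53% of all genes tested, and nothing is read from this since the genes were chosen on these libraries.

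In that comparison edgeR called 0 of 21958 genes at an adjusted p under 0.05 (0%), so none of the 7 passed. At an unadjusted p under 0.05 it had 2643 genes. DESeq2 called 158 of 39090 genes with a p-value (0.404%), 5 of the 7 among them. The edgeR fit without knockdown replicate 5 called 375 (1.66%), 6 of the 7 among them. Both used libraries that chose the genes. The 39090, used for DESeq2 below too, did not pass the edgeR filter as a set. They include any gene of low count that DESeq2 left without an adjusted p. The labels do not state whether the libraries of a group came from separate mice, so p-values describe the spread among these libraries, part of which may be technical.

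The comparison of morphine with saline, both with the scramble virus, shares the scramble morphine libraries with the comparison above, and all 7 genes were below 0 in it. The log2 fold changes were -0.80 (SE 0.28) for Rn7sk, -0.78 (SE 0.22) for CT010467.1, -0.54 (SE 0.20) for Lars2, -0.33 (SE 0.10) for mt-Rnr2, -0.29 (SE 0.41) for Rmrp, -0.28 (SE 0.09) for mt-Rnr1 and -0.16 (SE 0.29) for Rpph1. Only for CT010467.1 was every morphine library below every saline library, 1 of 7 genes beside 1.33% of all genes tested. No gene was called by edgeR (0%), with 765 at an unadjusted p under 0.05 and 6 called by DESeq2 (0.0153%), none of them among the 7.

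The knockdown group set against scramble with saline, a pair that differs in virus and in drug at once, shares libraries with both comparisons. The 7 genes lay above 0 here, at 0.89 (SE 0.20) for Lars2, 0.85 (SE 0.28) for Rpph1, 0.73 (SE 0.28) for Rn7sk, 0.70 (SE 0.41) for Rmrp, 0.55 (SE 0.21) for CT010467.1, 0.27 (SE 0.09) for mt-Rnr1 and 0.18 (SE 0.10) for mt-Rnr2. Lars2 alone did not overlap, 1 of 7 beside 1.37% of all genes tested. None of the 7 was among the 3 genes called by edgeR (0.0137%), and DESeq2 called 147 (0.376%), among them Lars2 alone of the 7. Without knockdown replicate 5 edgeR called 55 (0.244%), none of them among the 7.

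**Figure D3:**
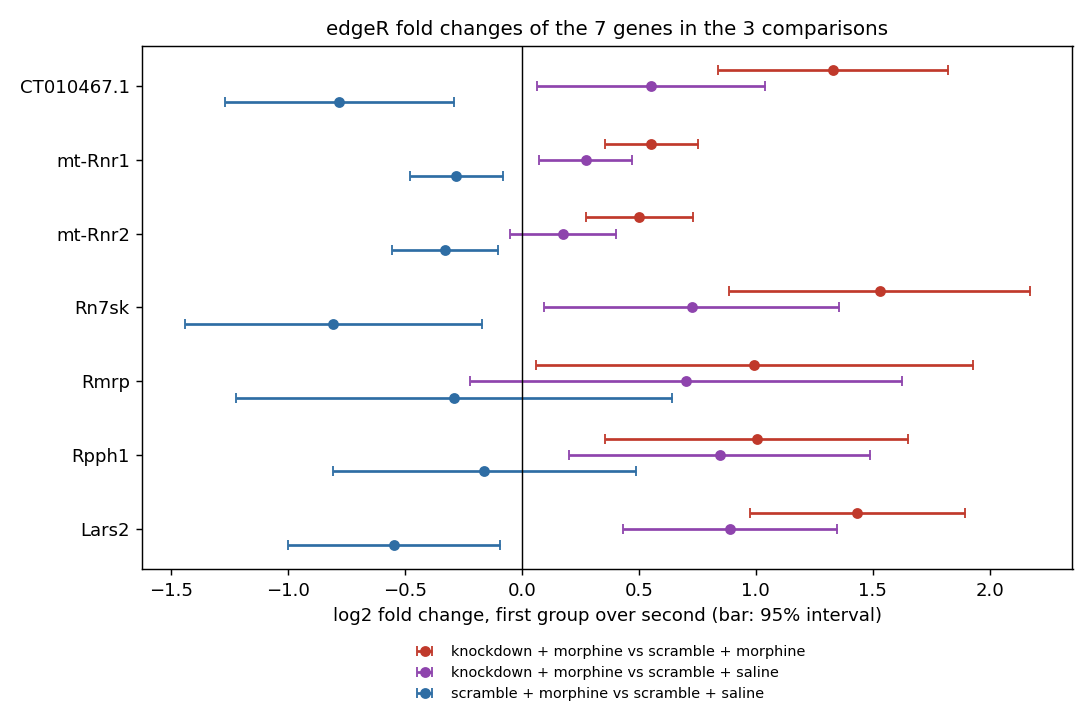
Log2 fold change of each gene on the x axis, first group over second, with a bar for the 95% interval, in 3 colours for the 3 comparisons. All 7 genes lie above 0 for knockdown with morphine against scramble with morphine, with Rn7sk highest at 1.53 and mt-Rnr2 lowest at 0.50, and all lie below 0 for scramble with morphine against scramble with saline.

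Within a library, the ratio of counts between these genes does not depend on library size. Lars2 had between 5.01 and 8.54 counts per 100 counts at CT010467.1, a span of 1.71 times, over libraries in which CT010467.1 itself spanned 3.94 times. The ratio averaged 6.94 ± 1.07 with knockdown, against 6.34 ± 0.842 with scramble and morphine and 5.36 ± 0.466 with scramble and saline (SD, n = 4 each), and the ranges overlapped between knockdown and scramble with morphine and did not between knockdown and saline. Rn7sk had 4.94 to 7.33 counts per 10000 at CT010467.1, a span of 1.48 times, with means of 6.84 ± 0.485, 5.93 ± 0.807 and 6.04 ± 0.552 in the same order of groups.

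The mitochondrial ribosomal RNAs kept a near-constant ratio to each other and not to CT010467.1. mt-Rnr2 had 1.47 to 1.68 counts for each count of mt-Rnr1 over the 12 libraries. The ratio of mt-Rnr1 to CT010467.1 was 0.0380 ± 0.00887 with knockdown, against 0.0618 ± 0.00724 with scramble and morphine and 0.0439 ± 0.00450 with scramble and saline (SD, n = 4 each), and the knockdown and scramble libraries with morphine did not overlap in it. The ratio of Rmrp to Rn7sk spanned 3.20 times and that of Rpph1 to Rn7sk 2.05 times.

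**Figure D4:**
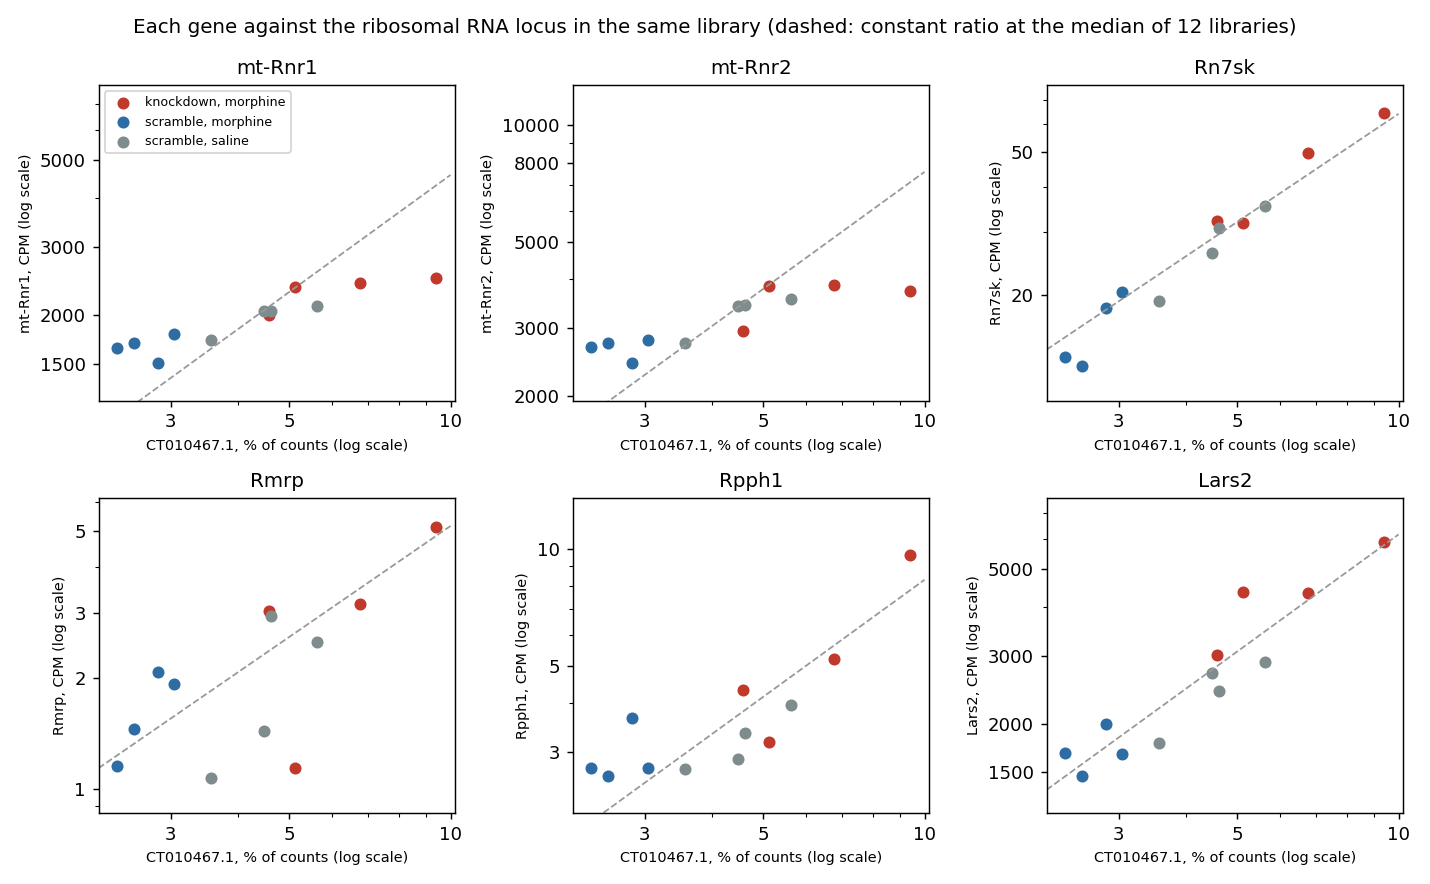
CPM of the 6 other genes on the y axes against the share of counts at CT010467.1 in the same library on the x axes, both on log scales, with 1 point per library coloured by group and a dashed line for a constant ratio. The ratio to CT010467.1 spans 1.48 times for Rn7sk and 1.71 times for Lars2, for which every knockdown library has a higher ratio than every saline library. mt-Rnr1 and mt-Rnr2 rise less steeply than the line.

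Across the 12 libraries, Pearson's r of log2 CPM with CT010467.1 was 0.98 for Rn7sk, 0.94 for mt-Rnr1, 0.94 for Lars2, 0.90 for mt-Rnr2, 0.84 for Rpph1 and 0.72 for Rmrp. Between mt-Rnr1 and mt-Rnr2 it was 0.97, and the lowest value, 0.50, was between mt-Rnr2 and Rmrp. These are descriptions over 12 libraries that share their group structure and their scaling, and they carry no test.

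Of 15975 genes with a mean of at least 1 CPM, the 5 most like CT010467.1 by this measure were Gm24187 (r = 0.981), Gm24447 (0.978), Gm24270 (0.977), an ID without a symbol in the reference (0.962) and Gm26315 (0.961). The 5 most like Lars2 were Gm24187 (0.955), Gm24270 (0.954), Rn7s1 (0.928), Rn7s2 (0.928) and Gm25911 (0.927). Rn7s1 and Rn7s2 are copies of the 7SL RNA of the signal recognition particle, and their annotated transcripts are identical over 300 bases, so reads cannot be split between them with certainty. Rn7s1 averaged 67.0 ± 31.6 CPM with knockdown, against 28.2 ± 3.93 with scramble and morphine and 39.2 ± 11.9 with scramble and saline (SD, n = 4 each).

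Gm24447 (338 bases, chr15:93234363-93234700) and Gm26315 (321 bases, chr2:7076094-7076414) are 83.8 and 84.1% identical to Rn7sk over a full-length alignment, so their reads and those of Rn7sk may be shared. Gm24447 averaged 6.75 ± 2.72 CPM with knockdown, against 2.59 ± 0.598 with scramble and morphine and 4.57 ± 0.801 with scramble and saline (SD, n = 4 each). Gm24270, Gm24187 and Gm25911 are annotated as miRNA hairpins on 3 chromosomes (chr9:56223715-56223771, chr13:9834469-9834525 and chr1:167340369-167340424, all minus). Their near-identical letters are shown with the bases that differ from Gm24270 in capitals.
Gm24270: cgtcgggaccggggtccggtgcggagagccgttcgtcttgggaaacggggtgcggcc
Gm24187: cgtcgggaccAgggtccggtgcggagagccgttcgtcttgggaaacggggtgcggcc
Gm25911: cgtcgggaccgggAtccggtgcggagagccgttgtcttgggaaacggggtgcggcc
Gm24187 was 98.2% and Gm25911 96.5% identical to Gm24270, so counts among the 3 are uncertain. Their letters were not compared with large-subunit ribosomal RNA, so whether these rows collect its reads was not tested. Gm24270 took 142, 96.3, 66.8 and 62.6 CPM in the knockdown libraries, against 30.1, 34.1, 37.2 and 26.0 in the scramble libraries with morphine and 48.1, 64.3, 38.1 and 63.7 in those with saline. Its knockdown libraries were above all scramble libraries with morphine.

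Other RNA without a poly(A) tail differed unevenly. Of 3875 such genes (types rRNA, snRNA, snoRNA, scaRNA, misc_RNA and ribozyme, outside the 7), 1818 had a count and 101 passed the filter. For knockdown against scramble with morphine 73 of the 101 were above 0, and the median log2 fold change was 0.29 beside 0.00 over all genes tested, and none was called by edgeR. For scramble with morphine against saline 39 were above 0 with a median of -0.24, and for knockdown against saline 63 were above 0 with a median of 0.16, again with none called. A row could pass the filter through 4 libraries alone, and so through the group in which it is high. Some of the 101 are copies that may share reads, such as Rn7s1 and Rn7s2. Nothing is therefore read from these counts of genes and medians. The gene of smallest p in the first comparison was Gm24447, at 1.46 (SE 0.27). Small nucleolar RNAs, which guide modification of ribosomal RNA, took 0.00299 ± 0.000111% of counts with knockdown, against 0.00272 ± 0.0000907% with scramble and morphine and 0.00286 ± 0.0000736% with scramble and saline (SD, n = 4 each), and the morphine groups did not overlap. Nor did they for snRNA, at 0.00153 to 0.00236% with knockdown against 0.00124 to 0.00136% with scramble and morphine. The types rRNA and misc_RNA, which hold CT010467.1 and Rn7sk, did not overlap either, whereas scaRNA and ribozyme did.

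Replication-type histone mRNAs typically end in a stem-loop in place of a poly(A) tail. The list was taken by symbol (Hist1h to Hist4h) and holds Hist3h2bb-ps, and whether the transcripts counted here had a tail was not tested. Of its 70 genes, 38 passed the filter. Their median log2 fold change for knockdown against scramble with morphine was -0.38, with 26 below 0 and none called by edgeR. For scramble with morphine against saline the median was 0.28, with 28 above 0, and for knockdown against saline it was -0.08, with 23 below 0. The limit of the filter given for the other RNAs holds here too. The smallest p in the first comparison was that of Hist1h4k, which averaged 0.493 ± 0.291 CPM with knockdown, against 1.72 ± 0.444 with scramble and morphine and 1.33 ± 0.618 with scramble and saline (SD, n = 4 each).

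The mitochondrial genome also encodes 13 mRNAs and 22 tRNAs, most of which come from the same long transcripts as the ribosomal RNAs. Against the 0.55 and 0.50 of mt-Rnr1 and mt-Rnr2, the mRNAs had a median log2 fold change of 0.11 for knockdown against scramble with morphine, with 11 of 13 above 0 and a range of -0.09 to 0.18. They had medians of 0.09 for scramble with morphine against saline and 0.19 for knockdown against saline, with 13 of 13 above 0 in each. mt-Nd2, a subunit of respiratory complex I, averaged 2517 ± 111 CPM with knockdown, against 2331 ± 52.9 with scramble and morphine and 2173 ± 69.2 with scramble and saline (SD, n = 4 each). The tRNA genes had a median of 0.00 in the first comparison, with 11 of 22 above 0 and a range of -0.26 to 0.38. No member of either list was called by edgeR in any of the 3 comparisons.

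Most nuclear genes of 3 lists for mitochondrial ribosomes, tRNA charging and transcription lay on the other side of 0. Between the morphine groups 50.7% of all genes tested lay above 0. Of 78 mitochondrial ribosomal protein genes 70 were below 0 for knockdown against scramble with morphine, and the median log2 fold change was -0.12, and of 16 other mitochondrial aminoacyl-tRNA synthetases 13 were below 0, with a median of -0.13. Of 19 genes of mitochondrial transcription and ribosomal RNA maturation 16 were below 0, with a median of -0.14. None of these genes was called in any comparison. The smallest p in each list belonged to Mrpl13, a large-subunit protein, at -0.37 (SE 0.09), Iars2, the isoleucine enzyme, at -0.22 (SE 0.07), and Tfb2m, a mitochondrial transcription factor, at -0.28 (SE 0.09). Against saline, the knockdown medians of the 3 lists were -0.09, -0.10 and -0.07, and those of scramble with morphine against saline were 0.03, 0.01 and 0.08.

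Proteins that make, hold or trim these RNAs had medians close to that of all genes. For knockdown against scramble with morphine the lists had median log2 fold changes of 0.01 for 8 genes of the 7SK particle and P-TEFb, -0.06 over 11 proteins of RNase P and MRP, -0.05 over 21 genes of RNA polymerase I and nucleolar maturation, and -0.05 over 26 genes of RNA polymerase III and its factors. None was called by edgeR in any comparison. The medians in the other comparisons lay between -0.08 and 0.03. Hexim1, which with 7SK RNA inhibits P-TEFb, averaged 60.9 ± 2.94 CPM with knockdown, against 54.0 ± 1.15 with scramble and morphine and 56.4 ± 1.57 with scramble and saline (SD, n = 4 each), with a log2 fold change of 0.24 (SE 0.06, edgeR adjusted p = 0.264) between the morphine groups. The smallest p elsewhere belonged to Pop7, a shared subunit of RNase P and MRP, at -0.19 (SE 0.10), Npm1, the nucleolar protein nucleophosmin, at -0.18 (SE 0.07), and Gtf3c5, a subunit of the polymerase III factor TFIIIC, at -0.30 (SE 0.09).

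**Figure D5:**
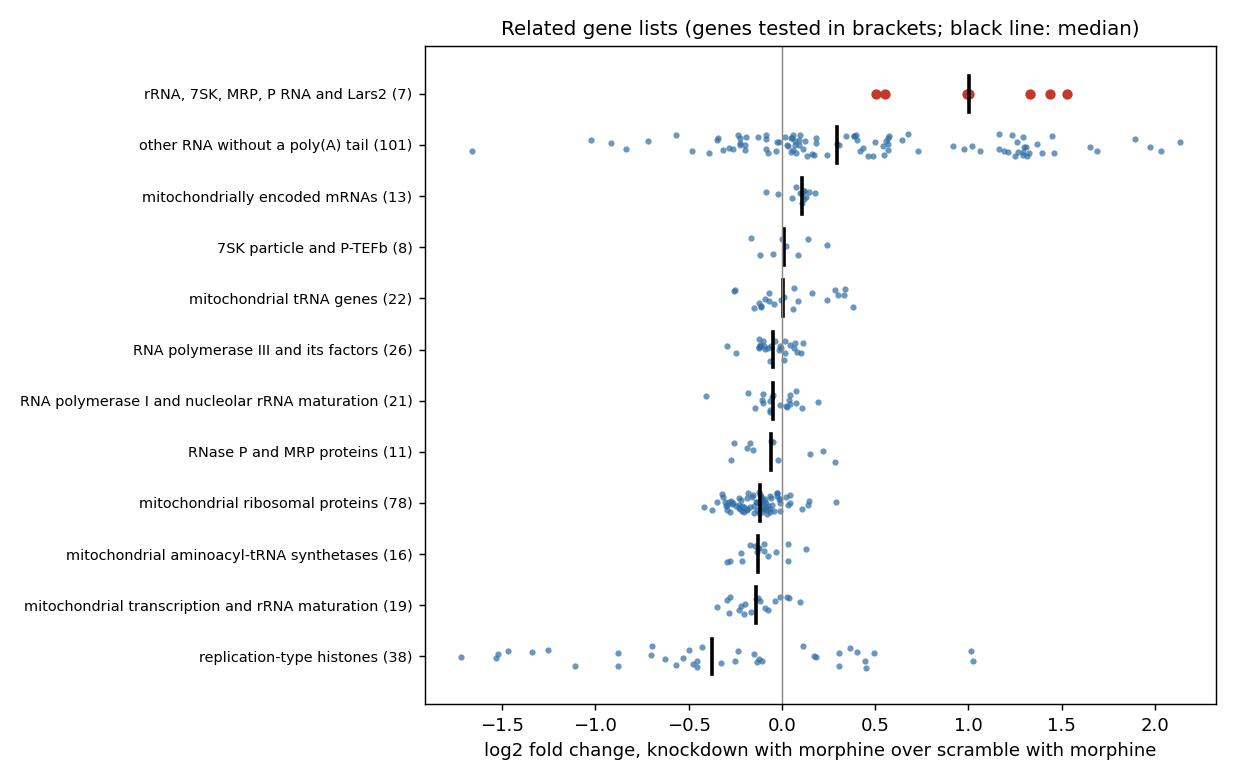
Log2 fold change for knockdown with morphine over scramble with morphine on the x axis, with 1 point per gene tested, a row per list with its number of genes in brackets and a black line for the list's median. The 7 genes described here (top row, median 1.0) were chosen on these libraries. The 101 other RNAs without a poly(A) tail spread widely around a median of 0.29, and the 38 replication-type histones around -0.38. The medians of the other lists lie between -0.14 and 0.11.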

How the data were processed

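The authors deposited a table of whole-number counts per gene for 12 libraries, with no normalized values. Per the labels' protocols, poly(A) RNA was captured on oligo(dT) beads and the second cDNA strand was marked with dUTP. The submitters' processing notes list HISAT2 2.0.4, StringTie 1.3.4d, cutadapt 1.9, edgeR, DESeq2 and the mm10 build, with neither roles nor order, so the counts may be estimates, and how reads with several places in the genome were counted is not given in the sources used here. That choice bears on every repeated or copied RNA described.

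Shares are counts over the library total, with exact (Clopper-Pearson) 95% binomial intervals. Fold changes came from edgeR 4.0.16 in R 4.3.3: filterByExpr with a minimum of 10 counts (21958 genes kept), TMM scaling, a robust quasi-likelihood fit on all 12 libraries with group as the only term and 9 residual degrees of freedom, and Benjamini-Hochberg adjustment over all genes tested at 0.05. The code was tested on simulated counts. DESeq2 1.42.0, other scalings, no filter, a replicate block, the compared groups alone and each library left out were alternatives. Symbols matched 55141 of 55401 IDs. Types, coordinates and transcript sequences came from GENCODE M21, on the same assembly as mm10. Per-kilobase levels used the union of annotated exons. No library pair of a group agreed within sampling noise (chi-square per gene of 13.4 to 96.0). Across groups it was 22.9 to 196, lowest between knockdown replicate 5 and scramble saline replicate 5. Knockdown replicate 5 had 53.2 to 96.0 with the other knockdown libraries. This chi-square was a sum over genes, CT010467.1 included, divided by their number, so genes of many counts weighed most in it.

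The 7 genes and all lists were chosen with earlier results of these data known. All 7 genes are named. Of each list the gene of smallest p is given where none passed, and the 5 genes most like CT010467.1 and Lars2 are those of highest Pearson r among genes with a mean of at least 1 CPM (counts in 1000000). Gm24270, Rn7s1 and Gm24447 were given more values after theirs were seen. The ratios of Rn7sk and mt-Rnr1 to CT010467.1 were added later.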

Additional observations from a re-analysis of the deposited data

Results flagged for a closer look

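A library was picked out here where, among the 4 of its group, its gap to the nearest other library took up more of the group's range than Dixon's test allows. This was asked of 39 sets of 4 libraries and picked out 8. For values that follow a normal distribution, chance alone picks out about 1 set in 20. The sets are shares and ratios of the same counts, so they are not independent, and no excess over chance is read from the 8.

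Among shares of counts, knockdown replicate 3 was the lowest of its group for mt-Rnr2, at 0.294%, and scramble saline replicate 4 the lowest of its group for mt-Rnr2, at 0.274%. Scramble morphine replicate 4 was the highest of its group for Rpph1, at 3.66 CPM (counts in 1000000). Among ratios, knockdown replicate 5 had the most Lars2 counts per 100 counts at CT010467.1 of its group, 8.54. The ratio of mt-Rnr2 to mt-Rnr1 was the lowest of its group in scramble morphine replicate 3, at 1.56, and in scramble saline replicate 4, at 1.59. The ratio of Rpph1 to Rn7sk was the lowest of its group in scramble morphine replicate 3, at 0.134, and the highest of its group in scramble saline replicate 4, at 0.141. The causes were not tested.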

How the results depend on the processing

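All fold changes of the 7 genes kept their direction in each comparison under the 19 alternatives run for each. For knockdown against scramble with morphine, where the genes were chosen, 16 of 133 alternative values passed an adjusted p of 0.05: with DESeq2 those of CT010467.1, mt-Rnr1, mt-Rnr2, Rn7sk and Lars2, without knockdown replicate 5 those of the same 5 genes and Rpph1, without knockdown replicate 3 or scramble saline replicate 4 those of mt-Rnr1 and Lars2, and without the low-count filter that of mt-Rnr1. Over the alternatives, the adjusted p of Lars2 ran from 5.55e-07 (DESeq2) to 0.485. For knockdown against saline, which shares the knockdown libraries that chose the genes, only Lars2 passed, with DESeq2 (0.0151). For morphine against saline none did.

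Counts of called genes moved more. Leaving out 1 library gave 0 to 375 genes for knockdown against scramble with morphine (375 without knockdown replicate 5), 0 for scramble with morphine against saline, and 0 to 55 for knockdown against saline (55 without knockdown replicate 5), where the full fit gave 0, 0 and 3. DESeq2 called 158, 6 and 147. Without the filter 2 genes were called in the first comparison and 5 in the third, with the compared groups alone 1 in the second and 5 in the third, and with library totals only 0 in the third. With the replicate number as a block 2, 1 and 0 genes were called. Libraries of the same number in different groups deviated together with r of -0.02 to 0.13 (median 0.05), over 0.1 in 2 of 9 pairs. For libraries of unlike number r was -0.18 to 0.12 (median -0.01), over 0.1 in 2 of 39 pairs. Values this weak cannot decide whether the numbers pair the samples. Over protein-coding counts in place of all counts, mt-Rnr1 stood at 0.261% with knockdown, 0.178% with scramble and morphine and 0.218% with scramble and saline, and mt-Rnr2 at 0.405% with knockdown and 0.286% with scramble and morphine, each more than 1 SD from the share reported, because the denominator is smaller. Depth limits Rmrp and Rpph1 most.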
